A study of Homo sapiens with 4 samples.

Results

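Cadherins are calcium-dependent adhesion proteins of the cell surface, and protocadherins are their larger and more diverse relatives. The genes described here are the rows of the deposited gene table whose symbol is CDH followed by a number or begins with PCDH, leaving out the Y-linked copy and names that end in P. That gave 59 of 22637 genes, of which 14 carried a CDH symbol and 45 a PCDH symbol. The set was put together because PCDH7 was among the genes most raised in LN-OlapR, so the ratios of LN-OlapR to LNCaP, and those of PCDH7 above all, are given as a description. Of the 59 genes, 58 are protein-coding and 1, PCDHB1-AS1, is an antisense RNA. The protein-coding genes comprise 36 clustered protocadherins (1 PCDHA gene, 13 PCDHB genes and 22 PCDHG genes) and 22 genes outside the clusters. CDH2 (N-cadherin), CDH5, CDH9, CDH10, CDH11, CDH16, CDH17, CDH20, CDH22, PCDH8, PCDH15, PCDH17 and PCDH18 had no row under these symbols and were not analysed here.

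RNA was sequenced from 4 human prostatic adenocarcinoma cell lines with 1 library each. LNCaP is castration-sensitive, whereas its derivative C4-2B is castration-resistant. LN-OlapR and 2B-OlapR were raised from LNCaP and C4-2B, respectively, by long exposure to rising doses of olaparib, an inhibitor of the DNA repair enzyme PARP. The resistant lines were kept in olaparib for maintenance, and by the labels all 4 cultures were untreated and had stood for 48 hours without olaparib when RNA was taken, although the study's methods give another plating time. Each resistant line was a single derived line, so a difference between a resistant line and its parent cannot be told apart from a difference between 2 cultures.

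Classical cadherins of type I and type II join neighbouring cells through their outer domains and hold the actin cytoskeleton through catenins on the inside. E-cadherin, encoded by CDH1, is the main cadherin of prostate luminal epithelium. Protocadherins lack the catenin-binding tail. The clustered protocadherin genes lie in tandem arrays, each with a promoter of its own, and neurons use different subsets of these promoters in different cells, with the DNA-binding protein CTCF and cohesin bringing promoters to distant enhancers.

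The libraries held between 19950537 and 26394267 estimated counts. Levels are given as normalized CPM, counts per 1000000 after TMM scaling between libraries. A count of 3, taken as the limit of detection, corresponded to 0.112 CPM in LNCaP and 0.147 CPM in C4-2B, with the other libraries between. LN-OlapR set against LNCaP is called the LN pair and 2B-OlapR set against C4-2B the 2B pair, and C4-2B was also set against LNCaP. Ratios are given as log2 ratios of normalized counts with a 95% interval that covers counting error only. A gene was analysed in a comparison when its mean over the 2 libraries was at least 1 CPM, and was called when the libraries differed at least 2-fold. All 10 luminal epithelial marker genes listed were in the table, and 9 or 10 of them stood at 10 CPM or more in every library. The LNCaP library stood apart in KLK3, the gene of prostate-specific antigen, which was at 53.1 CPM in LNCaP against 1870 to 2685 CPM in the other libraries. With 1 library per line, no value for LNCaP can be given without this library. Markers of other cell types were sparse: 1 leukocyte marker of 5 listed (CD68, 0.409 to 5.14 CPM) and 1 endothelial marker of 5 (VWF, 2.61 to 12.2 CPM) were in the table, as were 3 of 7 fibroblast markers, which summed to between 8.83 and 19.0 CPM. The 3 of 6 basal epithelial markers in the table summed to between 1.37 and 6.95 CPM, and the 3 of 7 neuroendocrine markers to between 7.13 and 16.7 CPM. The part of these markers in the results below was not tested.

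Most of the 59 genes were low in every library. More than 3 counts were seen for 51 genes in LNCaP and 50 in LN-OlapR, while C4-2B had 30 and 2B-OlapR 38. No gene stayed at or under 3 counts in every library. A level of at least 1 CPM was reached by 26 genes in LNCaP and 32 in LN-OlapR, while C4-2B had 12 and 2B-OlapR 15. Only 11 genes reached 10 CPM in any library, namely CDH1, CDH3, CDH24, CDH26, PCDH1, PCDH7, PCDH20, PCDHB2, PCDHB5, PCDHGB5 and PCDHGC3. Of the 59 genes, 36 passed the limit of 1 CPM in at least 1 comparison and 23 passed it in none.

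A total of 33 of the 59 genes were analysed in LN-OlapR against LNCaP. A difference of 2-fold or more was seen upward in 16 of them, or in 9 when scaled by total counts, and downward in 3, beside 4.64% and 4.83% of all 15373 genes. The 16 include 7 genes under 1 CPM in LNCaP, which passed only through LN-OlapR and had to differ. Of the 3 lower, 2 (CDH26 and PCDHGA2) were under 1 CPM in LN-OlapR, so they passed only through LNCaP and had to be lower. The set was also chosen on this comparison, so nothing is read from these counts. The median log2 ratio was 0.94 over the 33 genes and -0.00 over all genes. In 2B-OlapR against C4-2B, 15 genes were analysed, 5 were at least 2-fold higher and 3 lower, beside 4.42% and 5.65% of all 15527 genes. Of the 5, 3 were under 1 CPM in C4-2B, so they passed only through 2B-OlapR and had to be higher. Of the 3 lower, 1 (CDH26) was under 1 CPM in 2B-OlapR, so it passed only through C4-2B and had to be lower. The 5 were CDH7, PCDH9, PCDH12, PCDHGA10 and PCDHGC3, the 3 lower were CDH24, CDH26 and PCDH7, and the median log2 ratio was 0.76 over the 15 genes and -0.00 over all genes. Of the 15, 8 lay above 0 and 7 below, beside 7761 and 7766 of all genes. The median was -0.06 over the 11 genes outside the clusters, so no shift of the set is read from it.

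In C4-2B against LNCaP, which shares a library with each pair, 22 genes were analysed. Of them 5 (CDH3, CDH24, PCDH7, PCDH9 and PCDH1) were at least 2-fold higher and 14 lower, beside 8.00% and 7.18% of all 15580 genes. The 14 comprised CDH26, PCDH12, both PCDHB genes analysed and all 10 PCDHG genes analysed, and 10 of them were under 1 CPM in C4-2B. The median log2 ratio was -1.55 over the 22 genes, also with PCDHGA12 set at its bound, and -0.02 over all genes. Over the 10 genes analysed outside the clusters it was 0.72. Of the 10 genes outside the clusters analysed, 5 were higher and 2 lower, and of the 12 clustered genes 0 were higher and 12 lower. The 10 genes under 1 CPM in C4-2B, all clustered but PCDH12, passed the limit only through LNCaP and had to be lower. The 3 higher genes under 1 CPM in LNCaP (CDH3, PCDH7 and PCDH9) passed only through C4-2B. Nothing is therefore read from these counts.

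CDH1 led the set in all 4 libraries and varied little. Its level was 572 CPM in LNCaP and 544 in LN-OlapR, while C4-2B had 473 and 2B-OlapR 449. It made up between 62.1% and 78.2% of the summed level of the 59 genes. Per kilobase of exon, CDH1 stood at 92.7 CPM per kb in LNCaP, and PCDH20, next in the order, at 5.49 CPM per kb. The log2 ratio of CDH1 was -0.07 (-0.11 to -0.04) in LN-OlapR against LNCaP and -0.08 (-0.12 to -0.04) in 2B-OlapR against C4-2B. Between C4-2B and LNCaP it was -0.27 (-0.31 to -0.24). All 3 intervals lay below 0 and all 3 differences were far smaller than 2-fold.

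The other type I cadherins were low or present in 1 lineage. CDH3, the P-cadherin gene and a neighbour of CDH1 on chromosome 16, had 1 count in LNCaP and 2 in LN-OlapR, while C4-2B had 408 and 2B-OlapR 396. It was therefore detected above the limit in the C4-2B lineage alone, at 19.9 CPM in C4-2B and 19.1 CPM in 2B-OlapR. The log2 ratio of C4-2B to LNCaP was 8.48, and its interval was wide (6.17 to 10.80) since it rests on 1 count in LNCaP. Between 2B-OlapR and C4-2B the log2 ratio was -0.06 (-0.26 to 0.14). CDH15, the M-cadherin gene first described in muscle, was at 2.42 CPM in LNCaP and 4.89 in LN-OlapR, while C4-2B had 2.49 and 2B-OlapR 4.25. It was higher in both resistant lines, with log2 ratios of 1.01 (0.57 to 1.45) and 0.76 (0.27 to 1.26). CDH4, the R-cadherin gene, stayed under 1 CPM in all libraries.

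**Figure D1:**
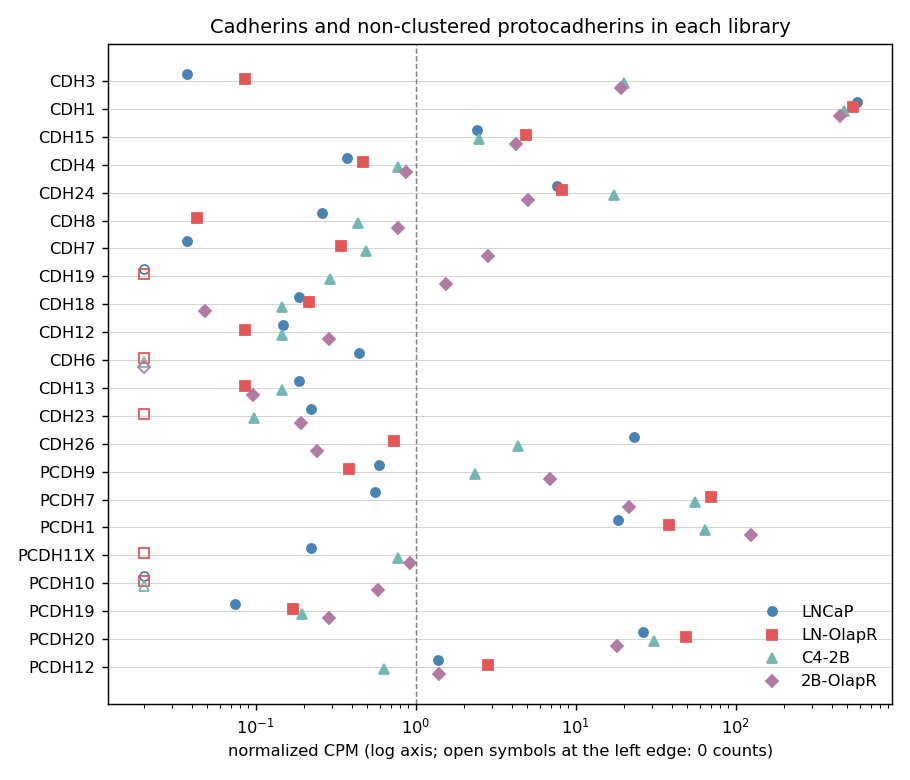
Level of each cadherin and protocadherin gene outside the clusters in the 4 libraries, in normalized CPM on a log axis, with 1 point per library and open symbols for 0 counts. CDH1 stands between 449 and 572 CPM, while PCDH7 is under 1 CPM in LNCaP and above 20 CPM in the other 3.

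Among the type II cadherins, CDH24 alone passed the limit of 1 CPM in all 3 comparisons. CDH24, whose product binds catenins as other type II cadherins do, was at 7.63 CPM in LNCaP and 8.23 in LN-OlapR, while C4-2B had 17.3 and 2B-OlapR 5.02. C4-2B was the high library. The log2 ratio was 1.18 (0.94 to 1.43) in C4-2B against LNCaP and -1.78 (-2.10 to -1.47) in 2B-OlapR against C4-2B, while in the LN pair it was 0.11 (-0.17 to 0.39), an interval that includes 0. CDH7 was highest in 2B-OlapR, where 59 counts gave 2.85 CPM against 10 counts and 0.489 CPM in C4-2B, a log2 ratio of 2.48 (1.54 to 3.43). In LNCaP and LN-OlapR, CDH7 had 1 and 8 counts. CDH19 followed the same order at a lower level, with 0 counts in both LN libraries, 6 in C4-2B and 32 in 2B-OlapR, and did not pass the limit of 1 CPM in any comparison. CDH6 had 12 counts in LNCaP and 0 in the other libraries. CDH8, CDH12 and CDH18 stayed under 1 CPM throughout, as did the GPI-anchored CDH13 and the hair cell cadherin gene CDH23.

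CDH26, a cadherin gene known from epithelia in allergic inflammation, was lower in both resistant lines than in their parents. Its counts were 622 in LNCaP and 17 in LN-OlapR, while C4-2B had 90 and 2B-OlapR 5. In CPM the same libraries stood at 23.1, 0.729, 4.40 and 0.241. The parental library was the higher of each pair, and LNCaP was the highest of all. In bulk RNA, fewer cells that use a gene and less of its RNA per cell cannot be told apart. The log2 ratio was -4.95 (-5.63 to -4.26) in LN-OlapR against LNCaP and -4.06 (-5.30 to -2.82) in 2B-OlapR against C4-2B. In C4-2B against LNCaP it was -2.39 (-2.71 to -2.07). In fold terms CDH26 was 30.9-fold lower in LN-OlapR and 16.7-fold lower in 2B-OlapR, and it ranked 56 from the lowest of 15373 genes in the LN pair and 36 from the lowest of 15527 in the 2B pair. The gene lies on chromosome 20 (GRCh38, plus strand, 59958427 to 60034011 in GENCODE release 29).

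PCDH7 was under 1 CPM in LNCaP and well above it in the other 3 libraries. PCDH7, a delta-1 protocadherin whose product works in adhesion and in signalling at the membrane, had 15 counts in LNCaP and 1634 in LN-OlapR, while C4-2B had 1146 and 2B-OlapR 445. The levels were 0.558 CPM (95% interval 0.338 to 0.921), 70.1 CPM (66.7 to 73.5), 56.0 CPM (52.9 to 59.3) and 21.5 CPM (19.6 to 23.6). LNCaP was the low library and the intervals of the 4 libraries did not overlap. The log2 ratio of LN-OlapR to LNCaP was 6.93 (6.20 to 7.65), which placed PCDH7 at rank 15 of 15373 genes from the highest. In 2B-OlapR against C4-2B the direction was the other one, with a log2 ratio of -1.38 (-1.54 to -1.22), or 2.61-fold lower. C4-2B, which the labels give as parental, stood 97.2-fold above LNCaP, a log2 ratio of 6.60 (5.88 to 7.33). The LN pair and C4-2B against LNCaP share the LNCaP library, the library in which KLK3 was also lowest (log2 ratios of 5.66 and 5.50 for KLK3 in the same comparisons). The leukocyte marker CD68 was lowest there too, with log2 ratios of 3.59 and 3.30, and what share of the PCDH7 ratios goes with that library was not tested.

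The 250 bases before the start of PCDH7 (RefSeq, GRCh38.p14, chr4:30720119-30720368, plus strand) and of CDH26 (chr20:59958173-59958422, plus strand) are printed because these genes had the widest ratios outside the clusters in the LN pair. Capitals mark the letters CGCT and its complement AGCG, the core of an element known from clustered protocadherin promoters.
PCDH7: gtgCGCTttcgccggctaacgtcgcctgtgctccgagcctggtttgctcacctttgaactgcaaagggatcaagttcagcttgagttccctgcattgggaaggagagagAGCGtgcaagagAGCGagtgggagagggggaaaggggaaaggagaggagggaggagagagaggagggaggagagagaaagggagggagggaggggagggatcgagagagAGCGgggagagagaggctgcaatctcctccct
CDH26: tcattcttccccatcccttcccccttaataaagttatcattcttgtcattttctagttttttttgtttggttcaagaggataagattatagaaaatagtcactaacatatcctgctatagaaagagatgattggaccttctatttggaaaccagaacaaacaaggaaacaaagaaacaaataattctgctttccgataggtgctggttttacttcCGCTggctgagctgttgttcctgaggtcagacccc
The PCDH7 stretch had a GC content of 59.6% and 10 CG dinucleotides, and that of CDH26 38.0% and 2 CG dinucleotides, beside a median of 58.0% and 11 over the same stretch of all 35116 windows. In the PCDH7 stretch CGCT occurred at 1 place and AGCG at 3, and in the CDH26 stretch CGCT occurred at 1 place and AGCG at 0.

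Among the other delta-1 genes, PCDH1 was higher in each resistant line and in the C4-2B lineage. PCDH1, the axial protocadherin, was at 18.5 CPM in LNCaP and 38.3 in LN-OlapR, while C4-2B had 64.3 and 2B-OlapR 124. The 4 libraries thus stood in the order LNCaP, LN-OlapR, C4-2B, 2B-OlapR. The log2 ratio was 1.05 (0.89 to 1.21) in the LN pair, 0.95 (0.85 to 1.05) in the 2B pair, with 1.80 (1.65 to 1.95) in C4-2B against LNCaP. PCDH9, a brain-rich delta-1 gene, was at 0.595 and 0.386 CPM in LNCaP and LN-OlapR and at 2.35 and 6.95 CPM in C4-2B and 2B-OlapR. Its log2 ratio was 1.56 (1.09 to 2.03) in the 2B pair, with 1.95 (1.14 to 2.76) in C4-2B against LNCaP. PCDH11X stayed under 1 CPM in all libraries, and of the delta-2 genes PCDH19 did too, while PCDH10 had 12 counts in 2B-OlapR and 0 elsewhere.

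PCDH20 and PCDH12 belong to neither delta group. PCDH20 was at 26.2 CPM in LNCaP and 48.9 in LN-OlapR, while C4-2B had 31.1 and 2B-OlapR 18.2. Its log2 ratio was 0.90 (0.76 to 1.03) in the LN pair and -0.77 (-0.96 to -0.59) in the 2B pair, so PCDH20, like PCDH7, was higher in 1 resistant line and lower in the other. In GENCODE release 29 another gene model on the same strand covers 95.8% of the PCDH20 exon bases, and which of them the reads came from cannot be told from the counts. PCDH12, known from endothelium and trophoblast, was at 1.38 CPM in LNCaP and 2.83 in LN-OlapR, while C4-2B had 0.635 and 2B-OlapR 1.40. Its log2 ratio was 1.03 (0.45 to 1.61) in the LN pair and 1.11 (0.18 to 2.04) in the 2B pair. VWF, the 1 endothelial marker of 5 listed that was in the table, had log2 ratios of -0.73 and -2.21 in these pairs. A relation between PCDH12 and VWF was not tested.

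**Figure D2:**
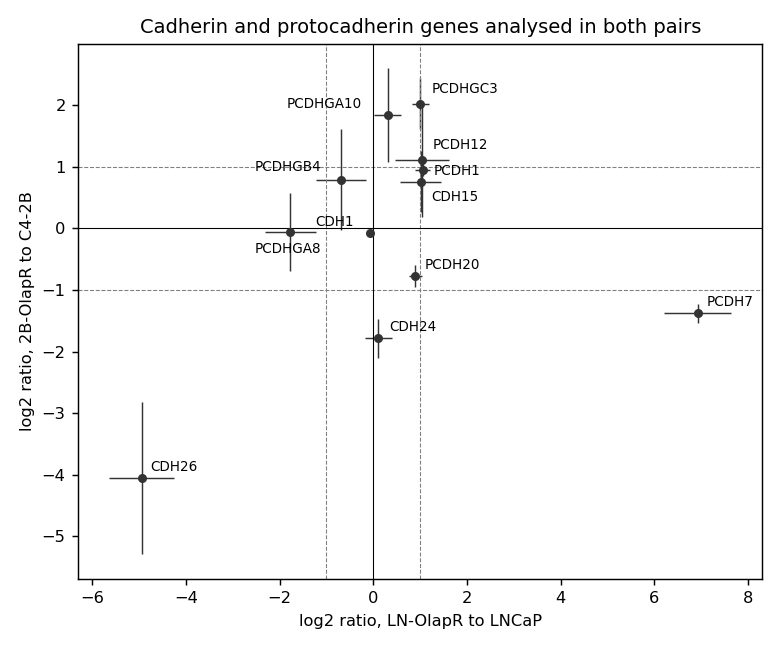
Log2 ratio in LN-OlapR against LNCaP on the horizontal axis and in 2B-OlapR against C4-2B on the vertical axis for the 12 cadherin and protocadherin genes analysed in both pairs, with 95% counting intervals as bars. CDH26 lies far below 0 on both axes, and PCDH7 and PCDH20 lie to the right of 0 and below it.

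The LN and 2B pairs share no library, and 12 genes of the set were analysed in both. In 5 of them, CDH15, PCDH1, PCDH12, PCDHGA10 and PCDHGC3, both intervals lay above 0, as in 14.1% of all 14602 genes analysed in both. In 2 of them, CDH1 and CDH26, both lay below 0, beside 13.2% of all genes, and in PCDH7 and PCDH20 they lay on opposite sides, beside 16.3%. Under total counts PCDHGA10 left the first group, since its interval in the LN pair then ran from -0.06 to 0.51. A 2-fold difference in the same direction in both pairs was reached upward by PCDH12 and PCDHGC3, beside 0.836% of all genes, and downward by CDH26, beside 1.09%. Under total counts CDH26 alone remained, with PCDH12 at 0.95 and PCDHGC3 at 0.92 in the LN pair. CDH26 was under 1 CPM in both resistant lines, so it passed only through the parental libraries and had to be lower. PCDH12 was under 1 CPM in C4-2B and had to be higher in the 2B pair. The LN side of these counts is the comparison on which the set was chosen, so nothing is read from them.

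A fit over the 4 libraries, added after the data were seen, compared the resistant with the parental lines and kept the lineage as a block, which leaves 1 residual degree of freedom. By edgeR's quasi-likelihood test with Benjamini-Hochberg adjustment, 0 of 15645 genes had an adjusted p under 0.05, and 1273 of them (8.14%) had an unadjusted p under 0.05. Of the 28 cadherin and protocadherin genes in this fit, 6 had an unadjusted p under 0.05, namely CDH26, PCDH1, PCDHB5, PCDHGC3, PCDHB1-AS1 and PCDHB13. CDH26 had the smallest, with a log2 ratio of -4.67 and an edgeR adjusted p of 0.132. The fit includes the LN pair, on which the set was chosen, so nothing is read from the count of 6. In C4-2B and 2B-OlapR, PCDHB5 had 1 and 2 counts, PCDHB13 2 and 8, and PCDHB1-AS1 0 and 0. The results of these genes in the fit thus rest mainly on the LN pair.

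The clustered protocadherins lie side by side on chromosome 5. For all 13 PCDHB genes, which carry their coding sequence in a single exon, the CPM value of LN-OlapR exceeded that of LNCaP, and the value of C4-2B was below both, an order shared by 18.6% of all 22637 genes. For 5 of the 13 (PCDHB3, PCDHB7, PCDHB8, PCDHB10 and PCDHB15) the interval of the LN pair included 0, and PCDHB7 had 6 counts in both LN libraries. Their summed level was 16.0 CPM in LNCaP (429 counts) and 56.7 in LN-OlapR (1323 counts), while C4-2B had 0.782 (16 counts) and 2B-OlapR 1.25 (26 counts). The PCDHB genes with more than 3 counts numbered 12 in LNCaP and 13 in LN-OlapR, while C4-2B had 1 and 2B-OlapR 3. The log2 ratio of the sums was 1.83 (1.67 to 1.99) in LN-OlapR against LNCaP and -4.31 (-5.02 to -3.60) in C4-2B against LNCaP. In 2B-OlapR against C4-2B it was 0.67 (-0.22 to 1.55), an interval that includes 0 and rests on few counts.

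PCDHB5 alone made up 44.8% of the PCDHB counts in LNCaP. PCDHB5 had 192 counts in LNCaP and 677 in LN-OlapR, while C4-2B had 1 and 2B-OlapR 2, that is 7.14, 29.0, 0.0489 and 0.0965 CPM. PCDHB2 had 96, 297, 9 and 1 counts in the same order, that is 3.57, 12.7, 0.440 and 0.0483 CPM. Both were highest in LN-OlapR and close to or under the limit of detection in both libraries of the C4-2B lineage. The log2 ratio in the LN pair was 2.02 (1.79 to 2.25) for PCDHB5 and 1.83 (1.50 to 2.16) for PCDHB2. In C4-2B against LNCaP it was -6.61 (-8.93 to -4.29) for PCDHB5, which rests on 1 count in C4-2B, and -2.95 (-3.91 to -1.99) for PCDHB2. Without these 2 genes the summed log2 ratio of the remaining 11 was 1.51 (1.23 to 1.79) in the LN pair. The other PCDHB genes analysed in the LN pair were PCDHB6 (2.71, from 7 and 42 counts), PCDHB14 (1.81), PCDHB13 (1.61) and PCDHB11 (1.50), and the 7 further PCDHB genes stayed under 1 CPM in every library. PCDHB1-AS1, whose annotated exons lie partly antisense to PCDHB2, had 11 counts in LNCaP, 119 in LN-OlapR and 0 in C4-2B and 2B-OlapR, with a log2 ratio of 3.58 (2.71 to 4.46) in the LN pair. Of its exon bases 36.5% overlap PCDHB2 on the other strand, and as the strand setting of the counting is not stated, reads of these 2 genes cannot be told apart there.

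The start regions of the PCDHB genes share a run of letters, shown here because these genes stood together across the 4 libraries. Each line gives 30 bases 5′ to 3′ on the plus strand (RefSeq, GRCh38.p14), with the letters GGTGGCGCT in capitals. They lie at chr5:141094545-141094574 for PCDHB2, chr5:141135180-141135209 for PCDHB5, chr5:141213866-141213895 for PCDHB13 and chr5:141223264-141223293 for PCDHB14.
PCDHB2: agagacgcggGGTGGCGCTgcagccttaga
PCDHB5: taggacgcctGGTGGCGCTgcaggctaaga
PCDHB13: gaggacgcgtGGTGGCGCTgcaggataaga
PCDHB14: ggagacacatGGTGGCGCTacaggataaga
GGTGGCGCT, or its complement AGCGCCACC, was found in the 300-base windows of 11 of 11 PCDHB genes with a window and of 0 of 20 PCDHG genes, beside 0.501% of all 35116 windows. These letters were picked as the 9-letter run found in most PCDHB windows, so the count describes those windows. They contain CGCT, which on either strand was in 70.0% of all windows and in those of all 11 PCDHB, all 20 PCDHG and all 14 genes outside the clusters that had a window. A fixed string of letters, taken as a CTCF-like core and searched on both strands, was in 10.6% of all windows. It was in the windows of 0 PCDHB and 0 PCDHG genes. No other pattern was searched as a CTCF site, so these counts cannot show whether such sites are absent there. Binding of CTCF to these windows was not tested.

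The PCDHG genes share their constant 3′ exons, so a gene's estimated count may depend on how reads in those exons were divided, which the sources used here do not give. The sum over the family is therefore given first. The shared bases made up between 27.6% and 64.4% of a gene's exon bases. The summed PCDHG level was 60.6 CPM in LNCaP (1629 counts) and 93.8 in LN-OlapR (2187 counts), while C4-2B had 11.7 (240 counts) and 2B-OlapR 23.7 (492 counts). The sum was higher in each resistant line than in its parent, and both libraries of the C4-2B lineage were below LNCaP. The log2 ratio was 0.63 (0.54 to 0.72) in the LN pair, 1.02 (0.79 to 1.24) in the 2B pair, with -2.37 (-2.56 to -2.17) in C4-2B against LNCaP. Of the 22 genes, 21, 22, 13 and 16 had more than 3 counts in LNCaP, LN-OlapR, C4-2B and 2B-OlapR. By CPM, C4-2B was below LNCaP in all 22, beside 50.9% of all 22637 genes, and LN-OlapR was above LNCaP in 18, beside 49%. The CPM of 2B-OlapR was above that of C4-2B in 12, and the matching share of all 22637 genes was not computed. Of the 15527 genes analysed in the 2B pair, 7761 had a log2 ratio above 0. Only 4 of the 22 PCDHG genes were among those analysed, so the 12 cannot be set against that number. Some of the 22 rest on few counts, such as PCDHGC5 with 2 in LNCaP and 0 in C4-2B. As they share exons, they are not separate observations.

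PCDHGC3, a C-type gene at the end of the cluster, had the highest level per kilobase of exon of the PCDHG genes in every library. Its level was 15.2 CPM in LNCaP and 30.5 in LN-OlapR, while C4-2B had 2.83 and 2B-OlapR 11.6. It accounted for 25.0%, 32.5%, 24.2% and 49.0% of the PCDHG sum in the same order. The log2 ratio of PCDHGC3 was 1.01 (0.83 to 1.18) in the LN pair, 2.03 (1.62 to 2.44) in the 2B pair, with -2.41 (-2.81 to -2.01) in C4-2B against LNCaP. Without PCDHGC3 the summed log2 ratio of the other 21 genes was 0.48 (0.37 to 0.59) in the LN pair and 0.44 (0.17 to 0.72) in the 2B pair.

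**Figure D3:**
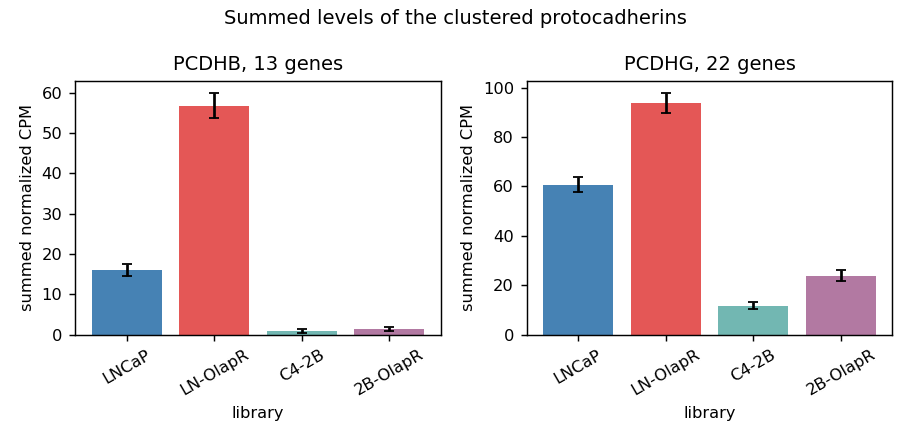
Summed level of the 13 PCDHB genes and the 22 PCDHG genes in each library in normalized CPM, with 95% counting intervals as bars. The PCDHB sum is 56.7 CPM in LN-OlapR and under 2 CPM in both C4-2B and 2B-OlapR, and the PCDHG sum is 93.8 CPM in LN-OlapR and 11.7 CPM in C4-2B.

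Single PCDHG genes did not all follow the sum. PCDHGB5 was at 7.59 CPM in LNCaP and 15.8 in LN-OlapR, while C4-2B had 1.08 and 2B-OlapR 0.724, with a log2 ratio of 1.05 (0.81 to 1.30) in the LN pair. PCDHGA10 was at 7.10, 8.79, 0.831 and 3.04 CPM in the same order, and its log2 ratio was 0.31 (0.02 to 0.59) in the LN pair and 1.84 (1.08 to 2.60) in the 2B pair. PCDHGA8 and PCDHGA2 were at least 2-fold lower in LN-OlapR. PCDHGA8 was at 4.87 CPM in LNCaP and 1.41 in LN-OlapR (log2 ratio -1.77, -2.32 to -1.22) and PCDHGA2 was at 1.67 and 0.514 CPM (-1.66, -2.56 to -0.76). PCDHGA8 overlaps PCDHGB4 further, over 4447 bases in all shared with its family, and PCDHGB4 was also lower in LN-OlapR, with a log2 ratio of -0.68 (-1.22 to -0.15). PCDHGA1 (1.60), PCDHGA7 (1.19) and PCDHGA11 (1.10) had the highest log2 ratios among the PCDHG genes analysed in the LN pair. PCDHGA12 had 63 counts in LNCaP and 0 in C4-2B, at least 16.0-fold lower when C4-2B is set to the limit of 3 counts. The log2 ratio of PCDHGA6 (-1.52), PCDHGA4 (-1.81), PCDHGB4 (-1.73) and PCDHGB1 (-2.94) in C4-2B against LNCaP was likewise below 0.

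Letters shared by start regions of PCDHG genes are shown in the same way, with GCGCCGCTGT in capitals, for genes of the LN pair that were higher (PCDHGB5 and PCDHGA10) and lower (PCDHGA8) in LN-OlapR. The lines lie at chr5:141397865-141397894, chr5:141412933-141412962 and chr5:141392570-141392599.
PCDHGB5: ctgactctggGCGCCGCTGTtggccaaagt
PCDHGA10: aggactctgaGCGCCGCTGTtcacctacta
PCDHGA8: aggactgtaaGCGCCGCTGTtcacctactg
The letters GCGCCGCTGT, or ACAGCGGCGC, were in the windows of 9 of 20 PCDHG genes and 0 of 11 PCDHB genes, beside 0.131% of all windows, and were picked in the same way, as the 10-letter run found in most PCDHG windows. The genes printed lie on either side of 0 in the LN pair, PCDHGA10 only just (log2 ratio 0.31, 0.02 to 0.59). Whether the letters go with the ratio was not tested.

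**Figure D4:**
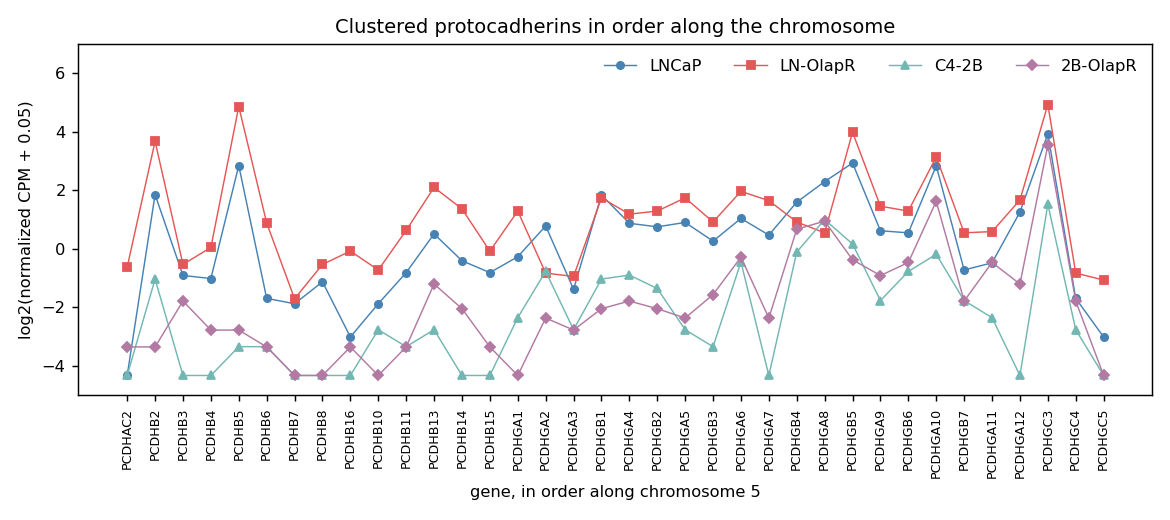
Level of each clustered protocadherin gene in the 4 libraries as log2 of normalized CPM plus 0.05 on the vertical axis, in the order of the genes along chromosome 5 on the horizontal axis, with 1 line per library. All 13 PCDHB genes sit higher in both LN libraries than in both libraries of the C4-2B lineage, as do 19 of the 22 PCDHG genes, PCDHGA2, PCDHGA8 and PCDHGA11 being the others. The share of all genes in this order was not computed, so nothing is read from these counts. Some genes rest on few counts, such as PCDHB7 with 6 in each LN library and 0 in C4-2B and 2B-OlapR.

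PCDHAC2, the 1 PCDHA gene of the set, had 0 counts in LNCaP and 14 in LN-OlapR, while C4-2B had 0 and 2B-OlapR 1. It stayed under 1 CPM and entered no comparison, and it shares 45.4% of its exon bases with other PCDHA genes.

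The genes that work with cadherins were counted from lists. Of 17 catenin and junction plaque genes analysed, 0 were at least 2-fold higher and 2, the neural alpha-catenin gene CTNNA2 (log2 ratio -1.07) and PLEKHA7 (-1.54), lower in LN-OlapR against LNCaP, beside 4.83% of all genes lower there. CTNNA2 was at 0.643 CPM in LN-OlapR, so it passed only through LNCaP and had to be lower. In 2B-OlapR against C4-2B 2 were higher and 1 lower, beside 4.42% and 5.65% of all genes. The genes called were CTNNA2 (1.42), the delta-catenin gene CTNND2, which went from 0 counts to 4.20 CPM or at least 28.6-fold, and the desmoplakin gene DSP (-1.62). CTNND2 and CTNNA2 (0.977 CPM) were under 1 CPM in C4-2B, so they passed only through 2B-OlapR and had to be higher. The core catenins CTNNA1, CTNNB1 and CTNND1 differed less than 2-fold in all 3 comparisons. Of the list, the plakophilin gene PKP1 (-1.46) was the 1 at least 2-fold lower in C4-2B than in LNCaP, beside 7.18% of all genes. PKP1 was at 0.929 CPM in C4-2B, so it too passed only through LNCaP and had to be lower. The median log2 ratio of the list was -0.35 in the LN pair, -0.06 in the 2B pair and -0.12 in C4-2B against LNCaP.

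The desmosomal cadherins were lower in 2B-OlapR. The 5 of 7 in the table summed to 425 CPM in LNCaP and 293 in LN-OlapR, while C4-2B had 223 and 2B-OlapR 82.7. All 3 analysed, DSG2 (log2 ratio -1.39), DSC2 (-1.71) and DSC1 (-2.79), were at least 2-fold lower in 2B-OlapR against C4-2B, where 5.65% of all genes were, and DSC2 was lower in C4-2B against LNCaP (-1.92). DSC1 was at 0.241 CPM in 2B-OlapR, so it passed the limit only through C4-2B and had to be lower there. In the LN pair 0 of 3 differed 2-fold. Of 4 nectin genes, NECTIN2 (-1.58) and NECTIN3 (-2.41) were at least 2-fold lower in LN-OlapR, as were 4.83% of all genes, while in 2B-OlapR NECTIN2 was lower (-1.02) and NECTIN3 higher (1.61). NECTIN3 was at 0.772 CPM in LN-OlapR, so in the LN pair it passed only through LNCaP and had to be lower. NECTIN3 was also lower in C4-2B than in LNCaP (-1.82).

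Among other proteins with cadherin repeats, CELSR2 was lower in LN-OlapR (log2 ratio -1.25), FAT2 was higher in 2B-OlapR (1.86), and DCHS1 (4.17) and CDHR3 (2.09) were higher in C4-2B than in LNCaP. FAT2 was under 1 CPM in C4-2B and CDHR3 in LNCaP, so they had to be higher in these comparisons. Of the 9 listed proteases that cut cadherins, 0 differed 2-fold in any comparison. Of 14 genes listed as regulators of the clustered loci, DNMT3A, a DNA methyltransferase, was at 63.1 CPM in LNCaP and 22.8 in LN-OlapR, while C4-2B had 26.6 and 2B-OlapR 10.2. Its log2 ratio was -1.47 in the LN pair, -1.38 in the 2B pair and -1.25 in C4-2B against LNCaP, and the zinc finger gene ZNF274 was lower in 2B-OlapR (-1.33). CTCF differed by less than 2-fold in all 3 comparisons. Among 10 analysed regulators of CDH1, the repressor gene SNAI2 was higher in LN-OlapR (1.37) and lower in 2B-OlapR (-1.52), and SNAI2 (1.47) and OVOL1 (1.40) were higher in C4-2B than in LNCaP. CDH1 itself differed by less than 2-fold in all 3 comparisons.

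**Figure D5:**
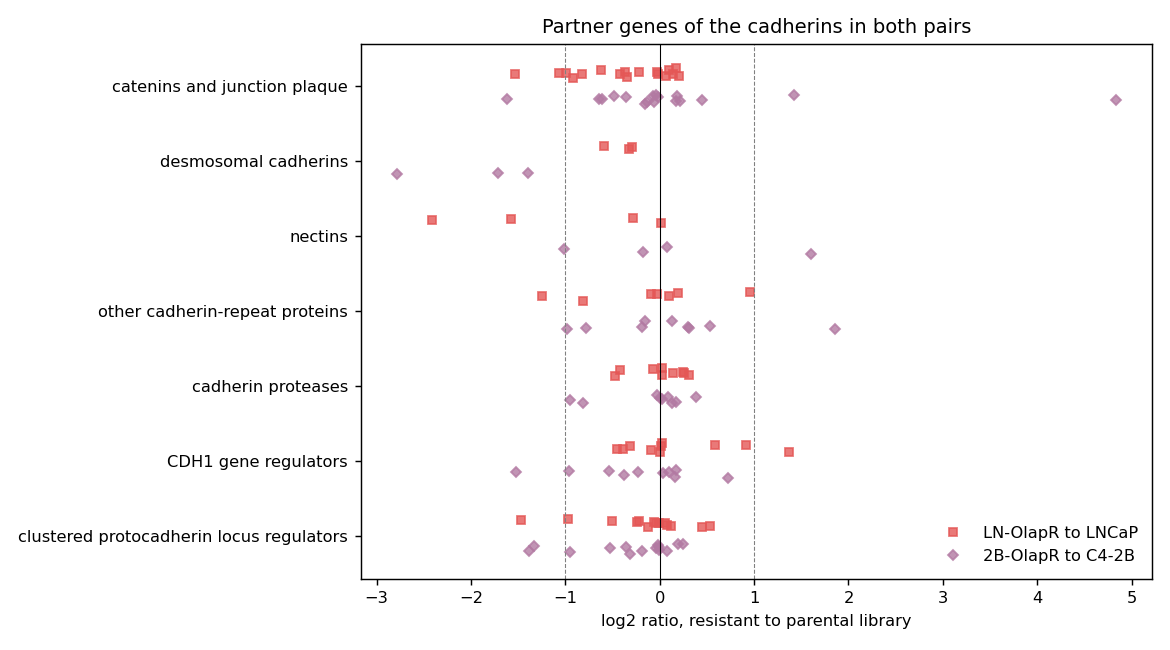
Log2 ratios of the genes of each partner list in LN-OlapR against LNCaP and in 2B-OlapR against C4-2B, with 1 point per gene and a gene at 0 counts drawn at its bound. The 3 desmosomal cadherins lie below -1 in 2B-OlapR against C4-2B, and the proteases stay between -1 and 1 in both pairs.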

How the data were processed

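The authors sequenced stranded mRNA libraries of 4 cell lines, 1 library each, and deposited estimated counts per gene, of which 46.2% of values are not whole numbers, so that they were rounded here. Tools named in the submitters' processing notes are STAR and Partek, with the builds GRCh38 and hg38. The role of each, the annotation and the quantification step are not given in the sources used here. Every row sums to at least 10 over the libraries.

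TMM factors from all genes were computed with edgeR 4.0.16 in R 4.3.3, and other steps used Python 3.11.15, pandas 2.3.3 and SciPy 1.17.1. Log2 ratios used a pseudocount of 0.5 counts, a minimum mean of 1 CPM and a call at 2-fold. Intervals are normal (ratios) and Wilson (levels) at 95%. With 1 library per line, single pairs have no test, and the 1 p-value reported comes from an edgeR quasi-likelihood fit over the 4 libraries with the lineage as a block, added after the data were seen. Exon lengths came from GENCODE release 29 and promoter windows from RefSeq (46 of 59 genes matched). The genes named are those with at least 10 CPM or a 2-fold call, in the clusters the highest and lowest, and, of the partner lists, those with a 2-fold call. Low genes such as CDH6, CDH19 and PCDH10, the core catenins, CTCF, KLK3, VWF and CD68 fall outside this and were named after their values were seen. Planned searches for E-boxes at CDH1 and for HAV in the proteins were not run. The members and lists were chosen with earlier results of these data known. Alternatives were total counts, DESeq2 1.42.0 size factors, upper quartile factors, 2 counts as the pseudocount, a limit of 0.1 or 10 CPM, unrounded counts and leaving out PCDHA and PCDHG genes. The scripts were tested on simulated data.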

Additional observations from a re-analysis of the deposited data

Results flagged for a closer look

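PCDH7 and PCDH20 differed in opposite directions in the pairs that share no library. PCDH7 had a log2 ratio of 6.93 in LN-OlapR against LNCaP and -1.38 in 2B-OlapR against C4-2B. PCDH20 had a log2 ratio of 0.90 in the first pair and -0.77 in the second. The difference between the pairs was not tested, as there was 1 library per line.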

How the results depend on the processing

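The labels give no replicate numbers, so the lines were paired by lineage alone, in the fit with the lineage as a block, where 0 of 28 cadherin and protocadherin genes had an edgeR adjusted p under 0.05. No replicate could be left out, as each line had 1 library. Of 444 ratios of named genes under the alternatives, 442 moved by less than their counting error, 2 moved (CDH1 in both pairs under total counts) and 0 reversed. The limits of 0.1 and 10 CPM and leaving out genes cannot change a ratio. They supplied 65, 20 and 38 of the 442, which were fixed in advance. The number at least 2-fold higher in LN-OlapR against LNCaP was 9 under total counts and 5 at a minimum of 10 CPM, while the number lower was 7 at a minimum of 0.1 CPM, 1 at 10 CPM and 1 without PCDHA and PCDHG genes, where the median was 1.50. In 2B-OlapR against C4-2B the number higher was 13 at 0.1 CPM, 0 at 10 CPM and 3 without those genes, and the number lower was 6 at 0.1 CPM. In C4-2B against LNCaP the number higher was 10 at 0.1 CPM and 3 at 10 CPM, the number lower was 36, 1 and, without those genes, 4, and the median at 10 CPM was 0.72. A minimum changes how many genes enter. The median over all genes moved most under total counts in the LN pair, by -0.08, to a median of -0.09.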
